A study of Mus musculus with 18 samples.

Results

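Fatty acid beta-oxidation genes were compared between bone marrow adipocytes and epididymal adipocytes of mice aged 6, 14 and 18 months. The gene set held 37 symbols, listed by their known place in the pathway, with earlier results of these data known. A gene was read from a probe set that names it alone, and Hadhb, the gene with several, from the one whose mean over the 18 arrays was highest. In this way 34 of the 37 genes were measured, of 19938 genes in all. Acsl1 had no probe set in the annotation used here, and the probe sets of Acsl3 and Cpt1b also name another gene, so these 3 were not analysed here.

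The groups were bone marrow adipocytes at 6, 14 and 18 months and epididymal adipocytes at the same ages, with 3 Affymetrix gene arrays in each of the 6 groups. All mice were C57BL/6J males on standard chow, and the labels name no treatment and no altered gene for any group. Each array held RNA pooled from several animals, the replicates therefore stand for pools, and the cells were separated by flotation without sorting. The labels call the epididymal cells peripheral, and the study's methods describe both cell types as taken from the same mice.

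Beta-oxidation shortens fatty acids that have been activated to acyl-CoA, by repeated dehydrogenation, hydration, further dehydrogenation and thiolytic cleavage. Long-chain acyl groups enter mitochondria as carnitine esters, and the electrons leave through electron transfer flavoprotein to the respiratory chain. Peroxisomes hold a parallel set of enzymes that shortens very-long-chain and branched fatty acids and that passes the products on to mitochondria. White adipocytes are known above all for storing and releasing fatty acids, and express this pathway at a lower capacity than brown adipocytes or liver.

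Promoter sequences of the genes on which the results turn are shown for 4 members, as RefSeq gives them for build GRCm38.p6, each from 250 bases before the annotated start to 50 bases after it. Of the 34 measured members, 29 had such an entry. Capitals mark AGGTCA, a nuclear receptor motif, and GGGCGG, the GC box, on either strand (TGACCT and CCGCCC on the reverse). The sequence of Hadhb (chr5:30155003-30155302, plus strand) is shown because Hadha, the gene of the partner subunit, starts 273 bases away on the minus strand and the windows of the 2 genes share 228 of their 300 bases. Acadm (chr3:153944594-153944893, minus strand) and Ehhadh (chr16:21787785-21788084, minus strand) are shown as a mitochondrial and a peroxisomal enzyme that were far lower in bone marrow. Cpt1a (chr19:3323051-3323350, plus strand) is shown as the entry enzyme that was not.
Hadhb: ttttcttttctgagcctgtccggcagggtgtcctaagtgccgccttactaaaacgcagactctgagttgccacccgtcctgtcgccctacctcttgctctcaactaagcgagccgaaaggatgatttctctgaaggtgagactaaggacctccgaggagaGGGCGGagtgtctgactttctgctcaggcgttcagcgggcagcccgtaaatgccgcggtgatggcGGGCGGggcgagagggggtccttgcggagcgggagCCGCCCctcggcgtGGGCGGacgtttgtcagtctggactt
Acadm: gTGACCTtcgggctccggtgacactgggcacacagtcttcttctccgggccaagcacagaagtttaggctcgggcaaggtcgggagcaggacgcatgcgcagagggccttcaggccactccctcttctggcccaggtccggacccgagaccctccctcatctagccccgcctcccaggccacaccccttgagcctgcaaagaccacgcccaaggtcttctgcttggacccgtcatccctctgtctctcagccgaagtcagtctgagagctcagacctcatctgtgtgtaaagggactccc
Ehhadh: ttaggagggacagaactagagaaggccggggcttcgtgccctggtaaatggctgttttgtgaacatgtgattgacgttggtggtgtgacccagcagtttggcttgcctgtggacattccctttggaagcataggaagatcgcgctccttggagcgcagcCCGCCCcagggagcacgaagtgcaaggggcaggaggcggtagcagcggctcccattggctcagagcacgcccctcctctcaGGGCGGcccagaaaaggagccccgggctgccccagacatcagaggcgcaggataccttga
Cpt1a: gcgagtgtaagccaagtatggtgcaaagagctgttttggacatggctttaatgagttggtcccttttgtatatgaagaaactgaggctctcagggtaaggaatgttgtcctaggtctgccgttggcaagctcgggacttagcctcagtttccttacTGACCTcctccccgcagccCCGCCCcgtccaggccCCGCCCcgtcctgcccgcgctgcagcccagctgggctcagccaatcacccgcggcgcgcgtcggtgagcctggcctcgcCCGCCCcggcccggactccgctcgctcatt

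The GC box stood in 22 of the 29 member promoters, against 35.7% of all 32851 promoters in the RefSeq table. Among the 21 members with a promoter entry that were lower in bone marrow, 15 held it, and so did 7 of the 8 members not called. AGGTCA stood in 5 members (Acadm, Acadvl, Cpt1a, Cpt1c and Echs1), against 16.3% of all promoters. Acadm and Cpt1a, the members set side by side above, both hold it, and Ehhadh and Hadhb do not. A direct repeat of AGGTCA with 1 base between the copies and the TATA motif TATAAA were in 0 of the 29 windows, against 0.0396% and 13.6% of all promoters. These counts describe the letters in these windows on both strands and say nothing of binding.

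The values are log2 expression as deposited. Differences are bone marrow minus epididymal, or older minus younger, from a limma fit with 1 mean for each of the 6 groups, with Benjamini-Hochberg adjusted p-values taken over the 23410 probe sets that name a gene. A gene was called higher or lower at an adjusted p under 0.05, and between cell types also at a fold of 2. Probe sets of 1027 olfactory receptor genes gave the level of probe sets with little signal, whose 95th percentile was 4.95 on bone marrow arrays, against 5.03 on epididymal arrays. Acot1 in epididymal adipocytes, with a mean of 4.68, was the only member within it over a whole cell type, and Ehhadh was within it in 14-month bone marrow, at 4.90. Differences that involve such a group have no exact size.

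The cell types did not differ in beta-oxidation genes alone. Of 11 mature adipocyte markers, 11 were lower in bone marrow (median -5.11), and the mean level of the list lay between 6.42 and 7.11 on bone marrow arrays, against 11.55 to 12.08 on epididymal arrays. Lep and Cidea lay within the olfactory receptor range in bone marrow, while Adipoq, at 8.08, 6.91 and 7.14 at the 3 ages, did not. All 10 neutrophil markers were higher in bone marrow (median 5.92, list means 11.70 to 12.35, against 5.31 to 8.93), as were 6 of 6 erythroid markers (median 5.31), 6 of 9 macrophage markers (median 1.46 over the ages) and 5 of 7 B lineage markers (median 2.79). The macrophage markers depended on age, with 6 of 9 higher and 1 lower in bone marrow at 6 months, 1 higher and 2 lower at 14 months (median -0.55) and 9 higher at 18 months (median 3.10). Mesothelial (6 of 6), fibroblast (5 of 6) and endothelial markers (5 of 6) were lower in bone marrow, and skeletal muscle markers were lower in 2 of 12. Of 5 brown adipocyte markers, Ucp1, Elovl3 and Cpn2 were within the olfactory receptor range in both cell types. Dio2 (mean 6.10 in bone marrow, against 5.55 in epididymal adipocytes) and Otop1 (5.56, against 6.41) were above it. None of the 5 was called over the ages, and 1 was lower in bone marrow at 18 months. Fewer adipocytes and less RNA per adipocyte cannot be told apart in such bulk samples, and the part of the other cell types in the differences below was not tested. The replicate arrays of 6-month bone marrow correlated less well (lowest r 0.973) than those of the other groups (0.990 or more), with replicate 1 apart. In 6-month epididymal adipocytes, replicate 1 carried a mean neutrophil marker level of 8.93, the highest of all 9 epididymal arrays.

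Over the 3 ages, 26 of the 34 members were lower in bone marrow and 0 were higher. Of all 23410 probe sets, 11.6% were lower and 10.2% higher. The median difference of the members was -1.88, against -0.02 for all probe sets, and in 26 members the 9 bone marrow arrays all lay below the 9 epididymal arrays, against 15.3% of all probe sets. At single ages, the 6-month arrays gave 26 lower members (11.8% of all probe sets), the 14-month arrays 26 (11.5%) and the 18-month arrays 28 (12.9%). Higher members numbered 0 at each age, against 11.4%, 9.91% and 10.9% of all probe sets. The same 24 members were lower at each of the 3 ages, against 8.06% of all probe sets. Counts of lower members over the ages were 26 without any 1 array, and 26 without both arrays that stood apart. On arrays scaled so that ribosomal protein genes were equal, the median of all probe sets moved to -0.69 and that of the members to -2.55, with 29 members lower and 0 higher. Of all 23410 probe sets, 5986 were lower and 1263 higher on that scale, against 2713 and 2380 as deposited.

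**Figure D1:**
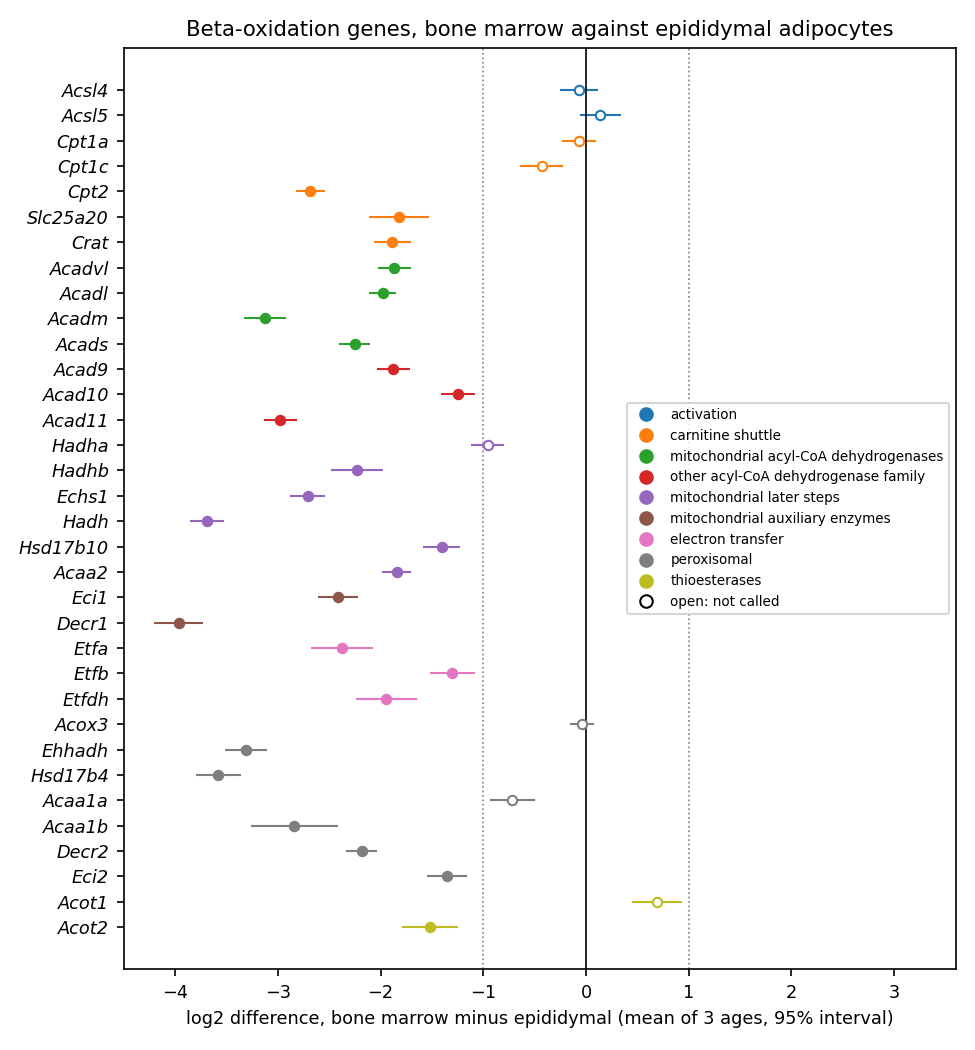
Log2 difference between bone marrow and epididymal adipocytes (mean of the 3 ages, points, with 95% intervals as bars) for each of the 34 genes, coloured by pathway step. Filled points passed the test, the dotted lines mark a fold of 2, and 26 filled points lie to the left of -1.

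Over the 3 ages together, no measured activation gene (Acsl4, Acsl5) or Cpt1 gene (Cpt1a, Cpt1c) was called between the cell types. Acsl1, Acsl3 and Cpt1b were not analysed here. The study lists Acsl1 and CPT1α among genes at least 2-fold lower in bone marrow adipocytes. For Cpt1a the values below fell short of that. Acsl5, an acyl-CoA synthetase, ran from a lowest 8.72 through a median of 9.57 to a highest 9.80 in bone marrow, against 8.94, 9.27 and 9.62 in epididymal adipocytes, and so overlapped fully. Cpt1a, the carnitine palmitoyltransferase of the outer mitochondrial membrane and the controlled entry step, had 8.88, 9.20 and 9.64 in bone marrow, against 8.76, 9.41 and 9.63 in epididymal adipocytes. Its difference was -0.07 (95% interval -0.23 to 0.09, limma adjusted p = 0.474), a mean of opposite signs at single ages. It was 0.40 at 6 months and -0.45 at 18 months, where 8.99, 8.99 and 8.92 in bone marrow lay below 9.48, 9.41 and 9.36 in epididymal adipocytes, and neither reached 2-fold. For Acsl5 the difference was 0.14 (-0.06 to 0.34), and for Acsl4, another acyl-CoA synthetase, -0.07 (-0.25 to 0.12). Cpt1c, a family member known mainly from neurons, had -0.43 (adjusted p = 0.000927) over the ages, below the 2-fold limit, but was called lower at 14 months, with -1.16 (adjusted p = 1.34e-05). With every array centred on its median that 14-month difference was -0.99, just under 2-fold. On the scale where ribosomal protein genes were equal, Acsl4, Acsl5 and Cpt1a had -0.74, -0.53 and -0.74, still short of 2-fold and close to the shift of all probe sets, while Cpt1c, at -1.10, was called lower.

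The inner part of the carnitine shuttle was lower in bone marrow. Cpt2, which turns acylcarnitine back into acyl-CoA at the inner membrane, had 6.73, 7.07 and 7.40 (lowest, median and highest) in bone marrow, against 9.11, 9.85 and 10.14 in epididymal adipocytes. All 9 bone marrow arrays thus lay below all 9 epididymal arrays, by 6.43-fold on average (log2 difference -2.68, SE 0.067, adjusted p = 3.52e-17). Slc25a20, the carnitine-acylcarnitine translocase, was 3.53-fold lower (-1.82, SE 0.14), and Crat, the carnitine acetyltransferase, 3.69-fold lower (-1.88, SE 0.085).

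All 4 mitochondrial acyl-CoA dehydrogenases, which catalyse the opening dehydrogenation for chains of different length, were lower in bone marrow. The medium-chain enzyme Acadm had 7.94, 8.68 and 8.85 in bone marrow, against 11.46, 11.65 and 12.13 in epididymal adipocytes, with a wide gap between the groups. Its difference of -3.12 (SE 0.099, adjusted p = 9.5e-16), an 8.72-fold lower level, was larger than the -2.25 of the short-chain enzyme Acads, the -1.98 of the long-chain enzyme Acadl and the -1.87 of the very-long-chain enzyme Acadvl. The related enzymes Acad11, Acad9 and Acad10 had -2.98, -1.88 and -1.25, and were lower as well.

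The later steps of the cycle were lower too, by unequal amounts. Hadh, the mitochondrial hydroxyacyl-CoA dehydrogenase of shorter chains, had 7.85, 8.15 and 8.52 in bone marrow, against 11.49, 11.80 and 12.16 in epididymal adipocytes. This is a 12.9-fold lower level (-3.69, SE 0.079, adjusted p = 3.62e-18), and the groups lay far apart. Echs1, the short-chain enoyl-CoA hydratase, had -2.71, the thiolase Acaa2 -1.84, and Hsd17b10, a hydroxyacyl-CoA dehydrogenase that also acts on steroids and branched amino acids, -1.40. Decr1, the dienoyl-CoA reductase that handles unsaturated chains in mitochondria, had the largest difference of the 34 members, with 6.20, 7.01 and 7.40 in bone marrow, against 10.43, 10.84 and 11.23 in epididymal adipocytes (15.6-fold lower, log2 -3.97, SE 0.11, adjusted p = 2.24e-16). Eci1, the enoyl-CoA isomerase for unsaturated chains, had -2.42.

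Hadha and Hadhb encode the subunits of the mitochondrial trifunctional protein of long-chain oxidation, and their promoter windows overlap on chromosome 5. Hadhb had 8.11, 9.17 and 9.52 in bone marrow, against 10.98, 11.38 and 11.78 in epididymal adipocytes, a difference of -2.23 (SE 0.12). Hadha had 9.15, 9.64 and 9.78 in bone marrow, against 10.20, 10.61 and 10.75 in epididymal adipocytes, a difference of -0.96 (SE 0.076, adjusted p = 1.2e-09). Both pairs of groups were free of overlap. Over the 3 ages, Hadha alone of the 17 mitochondrial members behind the outer membrane fell short of 2-fold (1.94-fold lower). Hadha was called lower at 6 months (-1.06) and 18 months (-1.02), but not at 14 months (-0.80). At 6 months Etfb fell short (-0.93). Within an array, the log2 ratio of the Hadhb to the Hadha probe set lay between -1.05 and -0.12 in bone marrow, against 0.55 to 1.09 in epididymal adipocytes, so the 2 genes changed unequally. The other Hadhb probe set gave -2.31. The pair was picked after its values were seen, and no test was made of it.

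The 3 electron transfer genes were lower in bone marrow. Etfa and Etfb, the subunits of electron transfer flavoprotein, had -2.37 (SE 0.14) and -1.30 (SE 0.11), and Etfdh, which passes the electrons to ubiquinone, -1.94 (SE 0.14). Their replicate spread was wide in 6-month bone marrow. There Etfb had 10.21, 9.31 and 9.63 on the 3 arrays and Etfdh 7.87, 8.71 and 9.44, with replicate 1 highest for Etfb and lowest for Etfdh. For Etfa, replicate 1 was lowest too, and replicate 2 highest at 9.59.

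**Figure D2:**
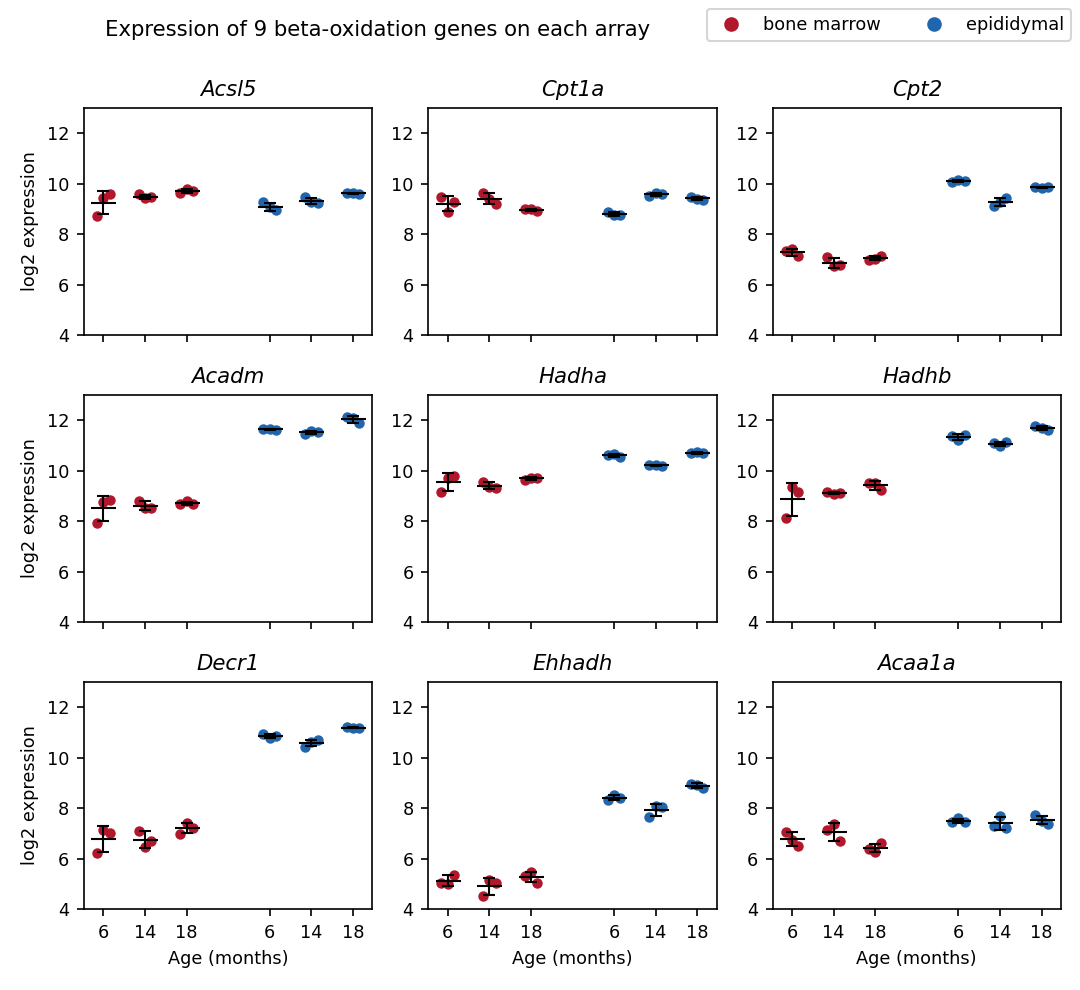
Log2 expression of 9 genes on each of the 18 arrays, by age in months, with bone marrow on the left of each panel and epididymal adipocytes on the right (points are arrays, long ticks the group mean, bars 1 SD, n = 3). Acsl5, Cpt1a and Acaa1a overlap between the cell types, and the other 6 genes are separate.

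Of the 7 peroxisomal members, 5 were lower in bone marrow. The median was -2.18 over the 7, against -2.23 for the 17 mitochondrial members, of which 16 were lower. These 17 were Cpt2, Slc25a20, the 4 dehydrogenases, the later and auxiliary steps and electron transfer, without Crat. Hsd17b4 and Ehhadh, the bifunctional enzymes of the D and L pathways, differed most. Hsd17b4 had 7.12, 8.01 and 8.13 in bone marrow, against 11.02, 11.51 and 11.75 in epididymal adipocytes (11.9-fold lower, log2 -3.58, SE 0.10). Ehhadh had 4.52, 5.04 and 5.45 in bone marrow, close to the olfactory receptor level, against 7.64, 8.39 and 8.96 in epididymal adipocytes (9.92-fold lower, log2 -3.31, SE 0.095). Decr2 and Eci2, the peroxisomal reductase and isomerase for unsaturated chains, had -2.18 and -1.36. Eci2 is also found in mitochondria but was counted here with the peroxisomal members. Acox3, a peroxisomal acyl-CoA oxidase of branched chains, was at 8.15, 8.31 and 8.62 in bone marrow, against 8.27, 8.36 and 8.51 in the epididymal arrays, with a difference of -0.04 (95% interval -0.15 to 0.08). With ribosomal protein genes set equal it had -0.71, near the shift of all probe sets.

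The peroxisomal thiolase exists in mice as the close copies Acaa1a and Acaa1b, whose probes may read each other's transcripts, so their split is uncertain. Acaa1b had 4.43, 5.40 and 6.74 in bone marrow, against 8.04, 8.21 and 8.83 in epididymal adipocytes (-2.84, SE 0.20), with no overlap. Its bone marrow arrays at 4.43 (18 months) and 4.89 (14 months) lay under the olfactory receptor level of 4.95, so the size of that difference is uncertain. Acaa1a had 6.26, 6.68 and 7.39 in bone marrow, against 7.21, 7.45 and 7.71 in epididymal adipocytes (-0.72, SE 0.10), and the groups overlapped. Acaa1a passed both limits at 18 months alone (-1.10). The same caution holds for the acyl-CoA thioesterases Acot1, of the cytosol, and Acot2, of mitochondria. Acot2 had -1.52 and was called lower, although its highest bone marrow array, the 6-month replicate 1 at 8.52, stood above its lowest epididymal array, at 8.34. Acot1 had 0.69, short of 2-fold, and 0.01 with ribosomal protein genes set equal.

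**Figure D3:**
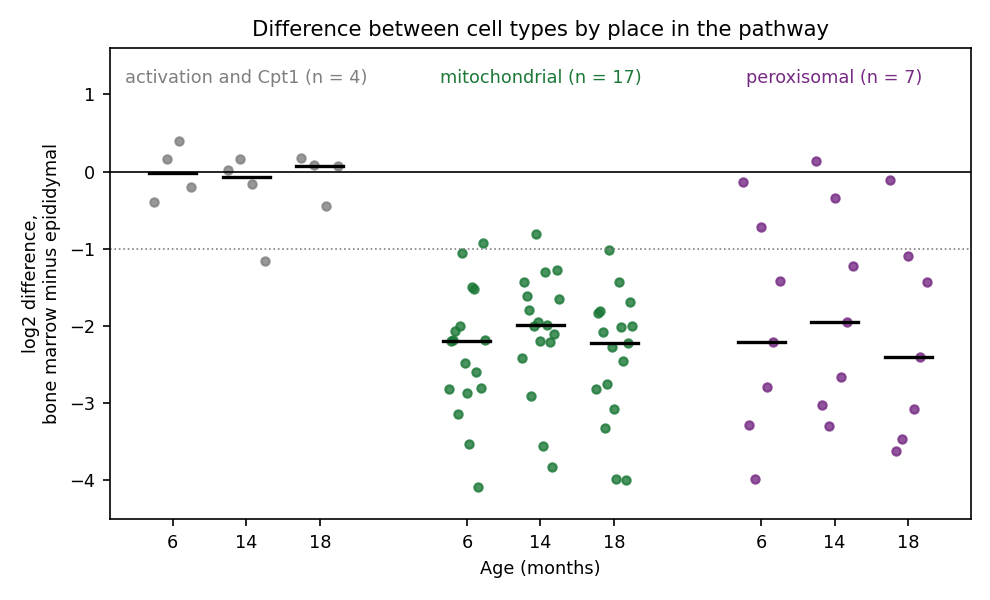
Log2 difference between bone marrow and epididymal adipocytes at each age in months, with a point for each gene and a black line at the median of each group. The 4 activation and Cpt1 genes lie around 0, except Cpt1c at -1.16 at 14 months, while the 17 mitochondrial genes lie from -0.80 down and the 7 peroxisomal genes spread from 0.13 to -3.98.

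Among 37 measured pathway genes that are no members, 25 had lower bone marrow levels and 0 higher ones (median -1.38). Peroxisome formation genes gave 7 of 12 lower, among them Pex11a, which drives peroxisome division. Its mean was 4.41 in bone marrow, within the olfactory receptor range, against 8.53 in epididymal adipocytes, so the size of that difference is not exact. Peroxisomal transporters and related enzymes gave 8 of 10 lower, led by Abcd2, a transporter of very-long-chain acyl-CoA (-3.66). All 4 genes of propionate breakdown were lower, among them the carboxylase subunits Pccb (-3.61) and Pcca (-3.30). Of 8 genes that control entry or transcription, 4 were lower: Pdk4, a kinase that holds back pyruvate oxidation, Acacb, whose product malonyl-CoA inhibits Cpt1 (-3.72), Mlycd, which removes malonyl-CoA (-1.14), and the nuclear receptor Ppara. Pdk4 averaged 4.99 in bone marrow, with its 14-month and 18-month means within the olfactory receptor range, against 9.58 in epididymal adipocytes. Ppara averaged 4.98 in bone marrow, at the edge of that range, against 6.02 in epididymal adipocytes.

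In 27 of 34 members no age comparison passed the test in bone marrow, against 79.8% of all probe sets, and in 10 of 34 none did in epididymal adipocytes, against 65.7%. The course over the ages was not steady. The 14-month mean was the lowest of the 3 ages in 28 of 34 members there, including 17 of 17 mitochondrial and 5 of 7 peroxisomal ones, against 36% of all probe sets. In bone marrow it was the lowest in 17 of 34 members, against 31.9% of all probe sets. These shares were noticed in the data and are given as a description.

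At 14 against 6 months in epididymal adipocytes, 12 members were lower, against 7.51% of all probe sets, and 2 were higher, against 10.2%. The median was -0.33, against -0.04 for all probe sets. Etfa had 10.51, 10.35 and 10.59 at 14 months, against 11.68, 11.56 and 11.61 at 6 months, and so fell by 1.13 (SE 0.25, limma adjusted p = 0.003). Cpt2 had 9.11, 9.29 and 9.44 at 14 months, against 10.08, 10.14 and 10.10 at 6 months, and fell by 0.83 (SE 0.12, adjusted p = 4.3e-05). In both genes the 3 older arrays lay below the 3 younger ones. Acadvl fell by 0.77, Echs1 by 0.61, Hsd17b4 by 0.59 and Acad11 by 0.55. The other 6 (Crat, Acad10, Eci2, Ehhadh, Acadl and Hadha) fell by 0.40 to 0.50, of which Ehhadh was at the limit with an adjusted p of 0.05.

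Both Cpt1 genes measured went the other way at 14 months. Cpt1a had 9.49, 9.63 and 9.59 at 14 months, against 8.89, 8.76 and 8.76 at 6 months, with no overlap, and rose by 0.77 (SE 0.13, adjusted p = 0.000416). Cpt1c had 6.14, 6.17 and 6.24 at 14 months, against 5.37, 5.59 and 5.55 at 6 months, and rose by 0.68 (SE 0.17, adjusted p = 0.00917). At 18 months Cpt1a was still higher than at 6 months, by 0.61 (adjusted p = 0.00441), with 9.48, 9.41 and 9.36 on the 3 arrays. Cpt1c, with 5.07, 5.26 and 5.28 at 18 months, fell by 0.98 against 14 months (adjusted p = 0.0003).

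Other markers moved with these changes. In epididymal adipocytes 9 of 9 macrophage markers were higher at 14 than at 6 months (median 2.40, list means 10.25 to 10.67, against 7.96 to 8.23), as were 6 of 6 mesothelial and 5 of 6 fibroblast markers. Mature adipocyte markers had a median of -0.26 with 1 of 11 lower. Their part in the changes of the members was not tested. Of the 37 pathway genes outside the set, 13 were lower and 0 higher, among them Pdk4 (-1.84), Acacb (-1.15), Pex13, a part of the peroxisomal import pore (-1.08), and Acot4, whose 14-month mean of 4.80, against 6.42 at 6 months, was within the olfactory receptor range. With every array centred on its median, all probe sets had a median of -0.16 and the members -0.46, with 15 members lower and 2 higher. That scale turned the split of all called probe sets from 2392 higher and 1758 lower into 1811 higher and 3526 lower. Leaving out epididymal replicate 2 or 3 at 6 months or replicate 1 at 14 months left 6, 7 and 6 members lower.

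At 18 against 14 months in epididymal adipocytes, 18 members were higher, against 11.7% of all probe sets, and 1, Cpt1c, was lower, against 12.5%. The median was 0.50, against -0.01 for all probe sets. It was 0.55 for the 17 mitochondrial members, of which 12 were higher, and 0.38 for the 7 peroxisomal members, of which 3 were higher. Acad9, which also helps to assemble respiratory complex I, had 9.77, 9.84 and 9.74 at 18 months, against 8.82, 8.62 and 8.95 at 14 months (0.99, SE 0.13, adjusted p = 1.77e-05). Ehhadh had 8.96, 8.93 and 8.78 at 18 months, against 7.64, 8.10 and 8.03 at 14 months (0.97, SE 0.17, adjusted p = 0.000221). Eci2 rose by a like amount (0.98), and none of these genes overlapped between the ages. Acot2 rose most, by 1.14 (SE 0.23). Both comparisons use the 14-month arrays, so the fall and the rise are not independent. Macrophage markers were lower on the 18-month arrays (9 of 9, median -3.98), mesothelial and endothelial markers too (6 of 6 each), while mature adipocyte markers had a median of 0.36 with 2 of 11 higher, and their part was not tested. Pathway genes outside the set gave 25 of 37 higher and 0 lower, among them Pdk4 (2.23), Acot4, a peroxisomal thioesterase (6.13 at 18 months, against 4.80, within the olfactory receptor range, at 14 months), Pex7, a receptor of peroxisomal import (1.18), and the coactivator Ppargc1a (1.08).

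**Figure D4:**
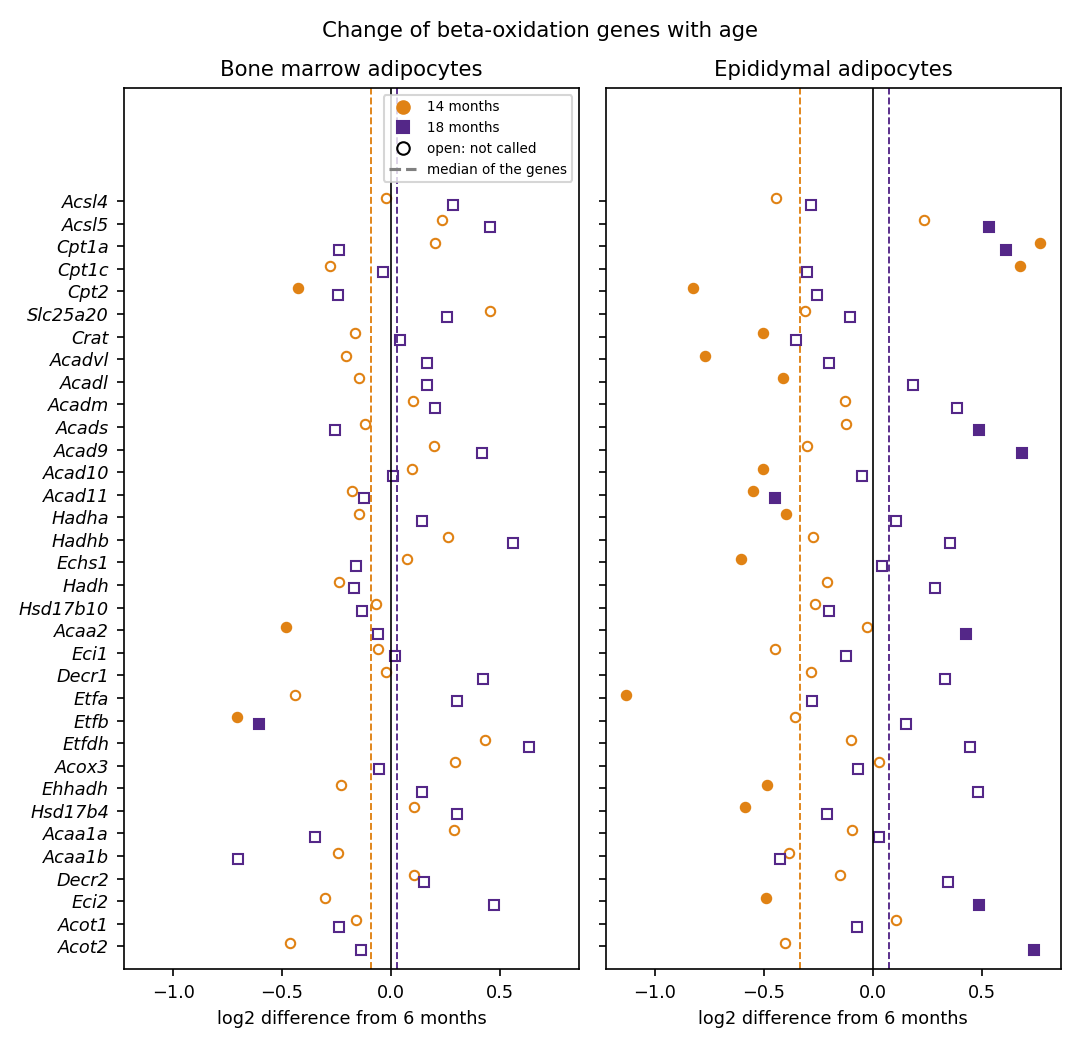
Log2 difference of each gene from 6 months, at 14 months (circles) and 18 months (squares), in bone marrow on the left and epididymal adipocytes on the right. Filled symbols passed the test and dashed lines are the medians of the 34 genes, which in epididymal adipocytes lie at -0.33 for 14 months and 0.07 for 18 months.

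At 18 against 6 months in epididymal adipocytes, 7 members were higher, against 8.22% of all probe sets, and 1 was lower, against 8.01%, with a median of 0.07 (all probe sets -0.06). The higher ones were Acot2 (0.74), Acad9 (0.68), Cpt1a (0.61), Acsl5 (0.53), Acads (0.49), Eci2 (0.49) and the thiolase Acaa2 (0.43). Acad11, which oxidises acyl-CoA with hydroxyl groups, fell by 0.45. Acads had 10.19, 10.33 and 9.99 at 18 months, against 9.66, 9.74 and 9.65 at 6 months, and Acaa2 10.37, 10.52 and 10.34, against 10.00, 10.05 and 9.91. Neither gene overlapped between the ages. The count of higher members was 3 without epididymal 6-month replicate 3, 4 and 2 without the 18-month replicates 1 and 2, and 12 without bone marrow 6-month replicate 1, whose spread enters the shared error. Without that array 2 members were lower, and Acad11 was not called without epididymal 6-month replicate 2 or 3 or any 1 of the 18-month replicates. Macrophage markers were lower here in 8 of 9 (median -1.56), and their part was not tested.

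In bone marrow few members passed the test, as did few of all probe sets. At 14 against 6 months 3 were lower, against 3.58% of all probe sets, and 0 higher, against 5.08%. They were Etfb, which fell by 0.71 (SE 0.18, limma adjusted p = 0.0212), Acaa2, by 0.48, and Cpt2, by 0.42. Etfb had 9.17, 9.05 and 8.81 at 14 months, against 10.21, 9.31 and 9.63 at 6 months, where replicate 1 stood above the others. Without that array none of the 3 was called and 3 other members were, with Etfb at -0.46 (adjusted p = 0.0881), Acaa2 at -0.33 (0.0588) and Cpt2 at -0.40 (0.0632). At 18 months Etfb had 8.76, 9.36 and 9.21, which overlaps the 6-month arrays. It was the only member lower against 6 months (-0.61, limma adjusted p = 0.0479, 5.13% of all probe sets). That call was lost without any 1 of 15 of the 18 arrays. No member rose against 6 months at 18 months, where 3.37% of all probe sets did. Fitting only the arrays of each comparison left 0 members lower in both. Without bone marrow 14-month replicate 2 or 3, 0 and 1 members were lower at 14 months, and without 6-month replicate 3, 3 were higher at 14 months and 6 at 18 months. Leaving out 6-month replicate 2 gave 2 higher members at 18 months, and leaving out 18-month replicate 1 gave 1. Macrophage markers were higher in 5 of 9 and B lineage markers in 5 of 7 at 14 months, and endothelial markers lower in 4 of 6. At 18 against 6 months, endothelial markers were lower in 5 of 6. Mature adipocyte markers were lower in 1 of 11 at 14 months and 3 of 11 at 18 months, with 0 higher. The part of all these markers was not tested. Pathway genes outside the set gave 4 of 37 higher and 1 lower at 14 months, which was Pdk4, at 4.47 to 4.54 at 14 months, within the olfactory receptor range, against 5.35 to 5.96 at 6 months.

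From 14 to 18 months in bone marrow, 2 members were higher, against 4.75% of all probe sets, and 3 lower, against 8.23%. Eci2 had 7.86, 8.07 and 7.66 at 18 months, against 7.02, 7.25 and 6.99 at 14 months, with no overlap (0.78, SE 0.16, adjusted p = 0.00304). The thiolase Acaa2 had 8.39, 8.42 and 8.38 at 18 months, against 7.89 to 8.03 at 14 months (0.42). Both genes were also higher at 18 than at 14 months in epididymal adipocytes. Acaa1a fell by 0.64, Cpt1a by 0.44 and Acox3 by 0.35. Without bone marrow 6-month replicate 1 the higher members were 6. The lower ones were 0 without 14-month replicate 1 or 2, or without 18-month replicate 1 or 2, and the higher ones 1 without 14-month replicate 2 or 3 or 18-month replicate 2 or 3. All 7 B lineage markers were lower at 18 months. Of 11 mature adipocyte markers, 4 were lower and 1 higher. The part of these markers was not tested.

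On the deposited scale the age change itself differed between the cell types in few members, as in few of all probe sets. At 14 months the bone marrow change exceeded the epididymal one in 2 members, against 5.07% of all probe sets, and fell short of it in 1, against 6.53%. At 18 months the numbers were 0, against 3.49%, and 2, against 5.02%. The count of larger bone marrow changes at 14 months lay between 0 and 6 without 1 array, and moved for all but epididymal 14-month replicate 3, bone marrow 18-month replicate 1 and epididymal 18-month replicate 3. At 18 months the count of smaller changes was 4 without bone marrow 6-month replicate 3, and that of larger ones 1 without any 1 of the 6-month bone marrow arrays. Cpt1a had the clearest difference at 18 months. It stood at 8.97 ± 0.04 in 18-month and 9.21 ± 0.30 in 6-month bone marrow, and at 9.42 ± 0.06 in 18-month and 8.81 ± 0.08 in 6-month epididymal adipocytes (SD, n = 3 each). The difference of the changes was -0.85 (SE 0.19, limma adjusted p = 0.00972), and the difference between cell types ran from 0.40 at 6 months through -0.17 at 14 months to -0.45 at 18 months.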

How the data were processed

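The deposited log2 values of 18 Affymetrix Mouse Gene 1.0 ST arrays were used as given. Scans had been put through gcRMA background correction and quantile normalization in Partek by the authors, who deposited log2 intensities, so only relative levels are kept and no detection calls are used here. Array medians were 5.33 to 5.65. The few arrays of each group, all pools, limit the precision, and p-values measure the spread between pools.

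All 23410 probe sets with a gene name, 1621 of them with several, entered a limma 3.58.1 fit in R 4.3.3 with 1 mean per group and a shared error for each probe set. The Benjamini-Hochberg adjustment was made contrast by contrast. The fit was tested on simulated data with known changes. Every member found on the array is named, and of the pathway genes outside the set up to 4 of a list with the largest differences. The markers named singly were not picked by that rule. The members and lists were chosen with earlier results of these data known, so no test over a list was made. Promoters are RefSeq, GRCm38.p6, and matched by symbol. Alternatives changed scaling, test, error model, probe sets, limits, replicate block and arrays. Figures were drawn with Python 3.11.15. The study's PCR and histology were not analysed here.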

Additional observations from a re-analysis of the deposited data

Results flagged for a closer look

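The change with age differed between the cell types, by limma's test of the difference of the changes, in 5 members. At 14 months against 6 months these were Cpt1c, with a bone marrow change minus epididymal change of -0.96 (adjusted p = 0.0137), Acad10, with 0.60 (adjusted p = 0.046), and Echs1, with 0.68 (adjusted p = 0.0289). At 18 months against 6 months they were Cpt1a, with -0.85 (adjusted p = 0.00972), and Acads, with -0.74 (adjusted p = 0.0118). Cpt1c had 5.18, 4.95 and 4.94 in 14-month bone marrow, against 5.70, 5.45 and 4.77 at 6 months, close to the level of olfactory receptor genes, while its epididymal arrays rose by 0.68. Echs1 had 7.61, 7.36 and 7.50 in 14-month bone marrow, against 7.15, 7.53 and 7.58 at 6 months, and fell by 0.61 in epididymal adipocytes. Acads had 7.30, 7.39 and 7.57 in 18-month bone marrow, against 7.79, 7.67 and 7.57 at 6 months, while its epididymal arrays rose by 0.49. With ribosomal protein genes set equal, Cpt1c had -0.66 (adjusted p = 0.118), Cpt1a -0.65 (adjusted p = 0.118) and Acads -0.54 (adjusted p = 0.153). Acad10 and Echs1 were not called with the replicate block (adjusted p = 0.0656 and 0.0817) or with array weights (0.0567 and 0.0747), and their calls were lost without any 1 of 13 and of 7 of the 18 arrays. Acad10 was also not called by ordinary analysis of variance (0.057) or with an intensity trend and robust prior (0.0587). Without the 6-month replicate 1 of both cell types, Cpt1c had -0.70 (adjusted p = 0.0543).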

How the results depend on the processing

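Counts of members lower in bone marrow stayed within 1.5 times under every alternative run. Without any 1 array they were 26 over the ages, 25 to 26 at 6 months, 26 at 14 months and 27 to 28 at 18 months, with 0 or 1 higher. No called member changed direction: over all alternatives, contrasts and members, called values were called again in 4820 cases and not in 286, and values not called became called in 220 cases and were again not called in 7524. Age counts moved more. Leave-one-out ranges in bone marrow were 0 to 3 higher and 0 to 4 lower at 14 months, 0 to 6 and 0 to 1 at 18 months, and 1 to 6 and 0 to 3 from 14 to 18 months. In epididymal adipocytes they were 2 to 2 and 6 to 15, 2 to 12 and 0 to 2, and 12 to 22 and 1 to 1. For the difference of the age changes they were 0 to 6 and 1 to 2 at 14 months, and 0 to 1 and 2 to 4 at 18 months. Without a fold limit, 1, 2, 1 and 1 members were higher in bone marrow over the ages and at 6, 14 and 18 months.

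Ordinary analysis of variance gave 1 higher member in bone marrow at 14 months and 0 lower at 18 months. It gave 4 higher in epididymal adipocytes at 18 months, and 1 higher age change in bone marrow at 14 months. An intensity trend with a robust prior gave that last count too. Array weights gave 0 lower in bone marrow at both ages, 7 higher there from 14 to 18 months, 14 higher and 4 lower in epididymal adipocytes at 18 months, and 0 and 1 higher differences of the age changes at 14 and 18 months. Repeated quantile normalization gave 2 higher and 0 lower in bone marrow at 18 months, 5 higher from 14 to 18 months, and 3 lower differences at 14 months. Centring on the median gave 1 higher in bone marrow at 14 and at 18 months, 0 lower at 18 months there and in epididymal adipocytes, and 7 higher differences at 14 months. Of all 23410 probe sets, 2123 then had a higher difference at 14 months, against 1187 as deposited. With ribosomal protein genes equal, bone marrow had 0 lower in each of the 3 age comparisons and 5 higher at 18 months. Epididymal adipocytes then had 1 higher at 14 months, and 3 higher and 0 lower at 18 months, and the differences were 10 higher and 0 lower at 14 months and 0 lower at 18 months. Over all probe sets the differences on that scale were 3041 higher and 746 lower at 14 months, and 376 lower at 18 months.

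Probe sets above the median level gave 1 higher in bone marrow at 14 and 18 months, 4 higher from 14 to 18 months, and in epididymal adipocytes 1 higher at 14 months and 0 lower from 14 to 18 months. A fit of the compared groups alone gave 0 lower in bone marrow at both ages, and 14 higher and 3 lower in epididymal adipocytes at 18 months. A fold of 1.5 gave 1 lower in bone marrow at 14 months and 1 higher and 1 lower from 14 to 18 months, and in epididymal adipocytes 5 lower at 14 months, 3 higher and 0 lower at 18 months, and 10 higher from 14 to 18 months. An adjusted p under 0.01 gave 0 lower in bone marrow at 14 and 18 months, 1 higher and 0 lower from 14 to 18 months, and in epididymal adipocytes 5 lower at 14 months and 2 higher and 0 lower at 18 months, with 0 differences at 14 months and 1 lower at 18 months. Without both arrays that stood apart, an alternative added after the data were seen, 1 member was higher in bone marrow at 6 months, 6 rose there from 14 to 18 months, 2 were lower in epididymal adipocytes at 18 months, and the differences were 0 lower at 14 months and 1 higher at 18 months. With the replicate block, the higher differences at 14 months were 0 and the lower members in 18-month bone marrow 0, and no other count of the members moved by over 1.5 times. Same-numbered arrays of the 2 cell types correlated between -0.136 and 0.153, with 1 of 9 pairs over 0.1, so the numbers were not taken as pairs.

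Scaling set the balance of all calls. With ribosomal protein genes equal, all probe sets gave 1263 higher and 5986 lower between cell types (as deposited 2380 and 2713), 1331 and 4609 in epididymal adipocytes at 14 months (2392 and 1758), 4086 and 1853 from 14 to 18 months (2728 and 2919), and 1527 and 447 in bone marrow at 18 months (790 and 1201). Low signal limits Acot1, Ehhadh, Cpt1c and Acaa1b most.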
